A study of Bos taurus with 12 samples.

Results

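The right ventricles of 3 Angus steers with pulmonary hypertension and no right heart failure (PH-healthy) were compared with those of 6 steers whose pulmonary arterial pressure (PAP) had stayed low (low PAP). The comparison was made across the 11374 genes that reached an RPKM of at least 1 in at least 3 of the 12 libraries, of 24616 genes in the table and 17284 with a value above 0 in any library. RPKM scales a gene's reads by its exon length and by how many reads its library had mapped. Of the series' 12 libraries, 9 belong to these groups. The other 3 come from steers with pulmonary hypertension and right heart failure (PH-failure), which entered the estimate of the spread and are given beside PH-healthy at the end.

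All animals, of the breed Angus and labelled WT, were male calves raised at 2170 m (7120 ft) on hay and grain, weaned and castrated at 6 to 8 months and slaughtered at 13 to 15 months of age. Chronic hypoxia of that elevation was thus common to every group, and no animals from lower ground were compared. The classes rest on repeated catheter measurements of PAP over 15 months at elevation and on clinical signs. The labels call the low-PAP animals tolerant of hypoxia and the PH-healthy animals high in PAP and healthy. Each library is 1 animal. The pressures themselves were not used here, so no gene was set against a pressure.

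The right ventricle pumps blood into the lungs and works against the PAP. In cattle at altitude the small lung arteries contract and thicken, the pressure can rise, and the right ventricular wall first thickens and may later dilate and fail, a disease of cattle known as brisket disease. Stretched and loaded heart muscle is known to release natriuretic peptides, to express genes of the fetal heart and of the stretch-sensing apparatus of the sarcomere, to lay down extracellular matrix, and to lower the expression of genes for oxidative metabolism. The comparison asks which of these programmes differed in ventricles that faced a raised pressure without clinical failure.

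Library depth, recovered from the RPKM steps, was 21931275 to 28341184 mapped reads in PH-healthy and 25841214 to 31090198 in low PAP, with a median of 370 reads per tested gene and library. The libraries carried the defining genes of ventricular muscle, with the 15 members on the list summing to 82270 to 90510 RPKM in PH-healthy and 79810 to 102500 in low PAP. The first principal component (56.1% of the variance) placed the PH-healthy libraries at 24.8 to 29.4 and the low-PAP libraries at -41.72 to -5.17, with low-PAP replicates 2 and 6 the nearest to PH-healthy, at -11.87 and -5.17. The groups also differed in 3 library measures. The share of exon reads from the 13 protein genes of the mitochondrial genome was 18.3 to 20.7% in PH-healthy and 22.5 to 29.9% in low PAP. A mean log2 score of adipocyte markers was 3.16 to 3.44 and 3.47 to 4.88, although the summed RPKM of the list (490.7 to 748.5 and 474.9 to 833.4) overlapped and 1 of its 13 tested members fell and 0 rose. With the genes in 10 classes of equal size by exon length and each library taken against the low-PAP mean, the median of the longest class minus that of the shortest was 0.494 to 0.711 on the log2 scale in PH-healthy and -0.329 to 0.382 in low PAP. None of the 3 overlapped between the groups, and their part in the results was not tested except where a value is given below.

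Of the 11374 genes, 3024 (26.6%) were higher in PH-healthy and 927 (8.15%) were lower (limma, Benjamini-Hochberg adjusted p under 0.05). Differences of at least 2-fold on the log2(RPKM + 1) scale, on which all log2 differences below are given, were found in 528 of the higher genes (4.64% of those tested) and 85 of the lower ones (0.747%). The libraries of the groups did not overlap in 3215 of the 3951 called genes. Over all tested genes, 2842 (25%) had every PH-healthy library above every low-PAP library and 1058 (9.3%) had every one below. The balance between rises and falls depended on the scaling. The median log2 difference of all tested genes was 0.175, so that a gene without change relative to the rest lay near that value. After quantile normalization 1424 genes were higher and 1622 lower, after median-ratio scaling 1824 and 1861, and after TMM scaling 1858 and 1822, against 76.5% of the calls being higher with RPKM as deposited. Library names carry the numbers 55 and 56, and all 3951 called genes had the same sign in both sets, of which 56 holds 1 PH-healthy library; as the calls were made on these libraries, that is no separate support. The count of calls was 1890, 2383 and 2248 without PH-healthy replicate 1, 2 or 3. A model that includes the adipocyte score gave 1099 calls (930 higher and 169 lower). The score does not overlap between the groups, so that score and group are partly confounded in that model, and the cause of the lower count was not tested.

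**Figure D1:**
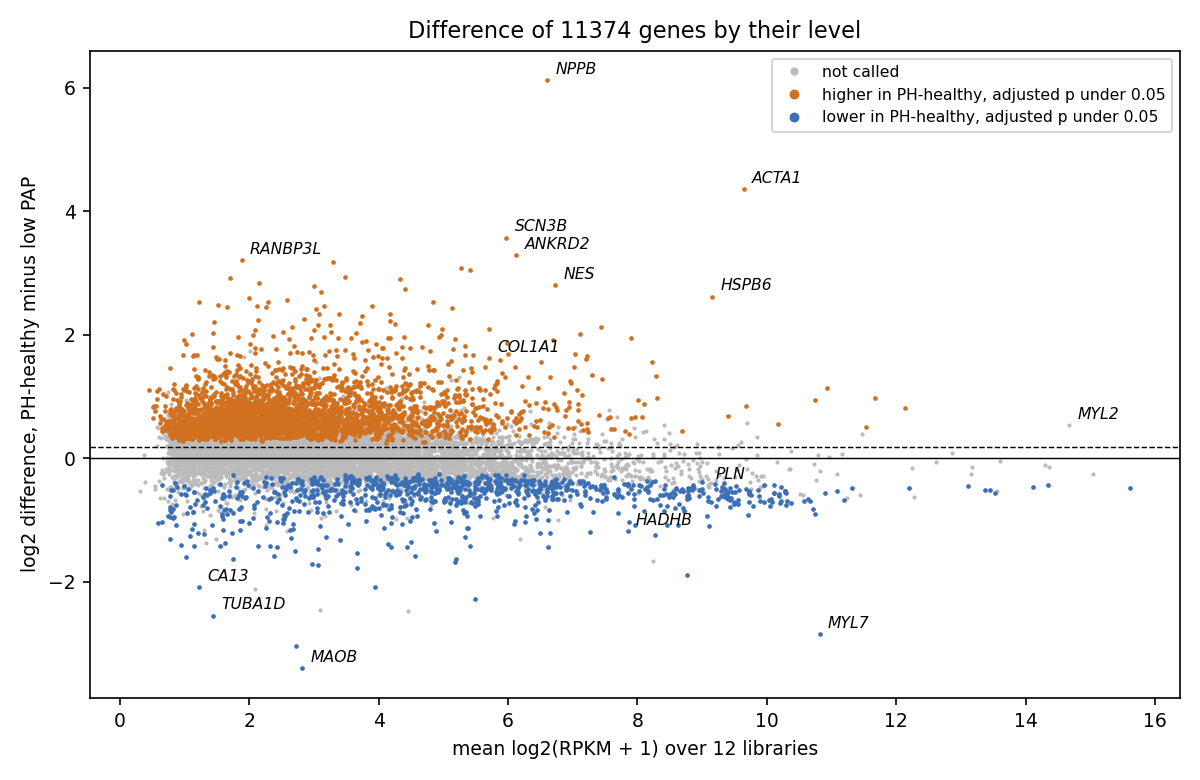
Log2 difference of PH-healthy minus low PAP against the mean log2(RPKM + 1) over 12 libraries for the 11374 tested genes, with genes at an adjusted p under 0.05 in orange (3024 higher) and blue (927 lower) and the others in grey; the dashed line is the median of all genes, 0.175. NPPB and ACTA1 lie highest among the labelled genes and MAOB lowest.

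Long genes were more often higher and short genes more often lower. In the class of genes with the shortest exons (median 659 bp), 10.4% of genes rose and 25.1% fell, with a median of -0.18. In the class with the longest exons (median 5202 bp), 53.8% rose and 0.527% fell, with a median of 0.43. Across the 11374 genes, which are not independent replicates, Spearman's rho of exon length with the log2 difference was 0.356. Removing the trend with exon length within each library left 1595 genes higher and 1521 lower, of which 2326 were also among the 3951. For reading the counts of gene groups below, the share of all tested genes called higher and lower was 26.6% and 8.15% with RPKM as deposited, 14% and 13.4% after removal of this trend, 12.5% and 14.3% after quantile normalization, and 8.18% and 1.49% in the model with the adipocyte score. Counts for many gene groups are given both ways below, because families such as the ribosomal proteins have short exons (median 590.5 bp) and basement membrane and other collagens long ones (median 5417.5 bp), against 1948 bp over all tested genes. A count given only with RPKM as deposited may move after removal of the trend. Calls differed by level too, with the genes in 10 classes by mean log2(RPKM + 1). In the most abundant class 10.7% of genes rose and 31.1% fell, with a median of -0.21. In the least abundant class 30.3% rose and 3.43% fell, with a median of 0.25. The part of level in the counts of gene groups was not tested.

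**Figure D2:**
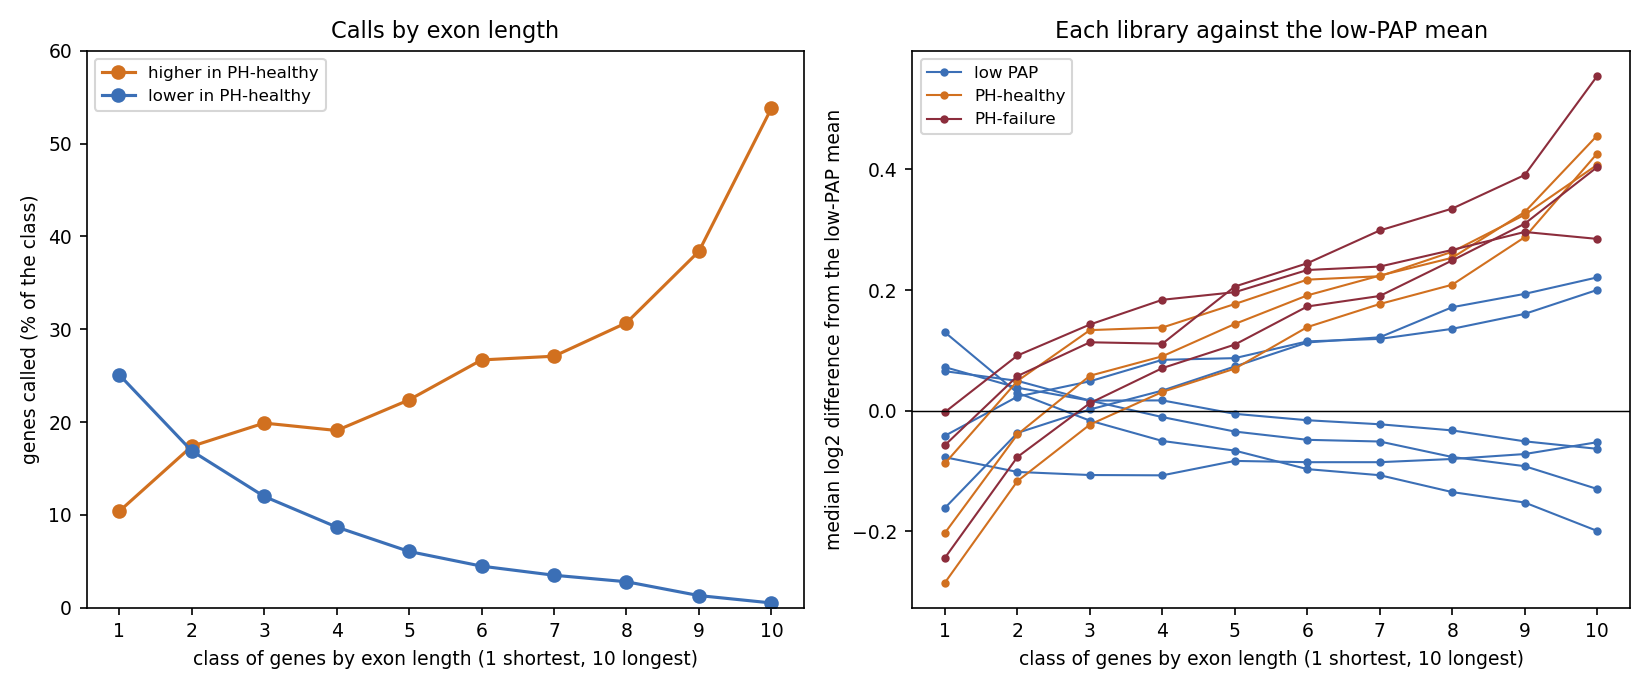
Left, the percentage of genes called higher (orange) or lower (blue) in PH-healthy in each of 10 classes by exon length, from 10.4% higher in the shortest class to 53.8% in the longest. Right, the median log2 difference of each library from the low-PAP mean in the same classes; PH-failure lines are dark red and low-PAP lines blue, and the 3 PH-healthy lines (orange) climb from the shortest to the longest class by 0.494 to 0.711.

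Natriuretic and stretch-responsive genes had the highest median difference of the lists. The lists were chosen with earlier results of these data known, so this rank is no separate support. Of 21 tested members of this list, 14 rose and 0 fell, with a median log2 difference of 1.25 against 0.175 for all genes; 13 rose after removal of the exon length trend. NPPB, the gene of B-type natriuretic peptide, which the ventricle releases when stretched, lies on chromosome 16, 42700409 to 42701796. It ranged from 3.23 to 70.4 RPKM (median 9.98) in low PAP and was at 871, 842 and 852 RPKM in PH-healthy replicates 1, 2 and 3. All PH-healthy libraries were thus above all low-PAP libraries and close to one another, whereas the low-PAP libraries were spread widely, with replicate 2 the highest. The log2 difference was 6.12 ± 0.79 (95% interval 4.41 to 7.83, adjusted p = 0.000536). The clearance receptor NPR3, which removes natriuretic peptides, rose from 4.13 to 16.8 RPKM (median 7.24) to 63.2, 48.4 and 59.9 RPKM (2.74 ± 0.47, adjusted p = 0.00197), again with no overlap. NPPA, the atrial natriuretic peptide, was at 11.4 to 101 RPKM (median 21.7) and at 45.9, 80.8 and 68.9 RPKM. Those ranges overlapped and NPPA did not pass (adjusted p = 0.22), with a 95% interval of -0.45 to 3.09 for the log2 difference. In bulk tissue, a change in the number of cells of a type and a change of RNA per cell cannot be told apart, here or below.

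Genes of the stretch-sensing and actin-bundling machinery rose too. ANKRD2, an ankyrin repeat protein that binds titin in the I band, lies on chromosome 26, 18627373 to 18636269 and rose from 12.5 to 36.3 RPKM (median 19.7) to 219.7, 195 and 205 RPKM (3.29 ± 0.34, adjusted p = 0.000135). Its relative ANKRD1 was far more abundant at 1796 to 3528 RPKM (median 2160.4) and rose by less, to 4462, 5769 and 3839 RPKM (0.97 ± 0.30, adjusted p = 0.0248). The libraries did not overlap for either gene, but the ANKRD1 call was lost without PH-healthy replicate 1 (adjusted p = 0.0703) or PH-healthy replicate 2 (adjusted p = 0.104) and after quantile normalization (0.0639), median-ratio scaling (0.0626) and TMM scaling (0.0595). The model with the adipocyte score ended it too (0.1446). XIRP2, an actin-binding protein of the intercalated disc on chromosome 2, 29080500 to 29131828, rose from 10.3 to 22.2 RPKM (median 12) to 129, 121 and 109.6 RPKM (3.08 ± 0.29, adjusted p = 9.45e-05). NES, the intermediate filament nestin, on chromosome 3, 14208425 to 14215064, had the tightest groups of these genes, with 36.1 to 51.7 RPKM (median 39.3) in low PAP against 305, 299 and 271 RPKM in PH-healthy (2.80 ± 0.13, adjusted p = 2.18e-07). The highest low-PAP library was far below the lowest PH-healthy one. ACTA1, skeletal muscle actin, which the fetal heart expresses, lies on chromosome 28, 419154 to 421910 and rose from 41.1 to 1056 RPKM (median 196) to 3819, 5042 and 4257 RPKM (4.36 ± 0.90, adjusted p = 0.00532). Low-PAP replicate 2 had the highest ACTA1 of its group as it had for NPPB, and was still below every PH-healthy library. ACTC1, the cardiac actin, was at 6016 to 8988 RPKM (median 6863) and 5729.6, 3381 and 4735 RPKM and did not pass (-0.63, 95% interval -1.60 to 0.34, adjusted p = 0.286), although its libraries did not overlap. ACTC1 passed as lower, at the same difference, with only the compared groups fitted (adjusted p = 0.0162) and without PH-failure replicate 3 (adjusted p = 0.0202).

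**Figure D3:**
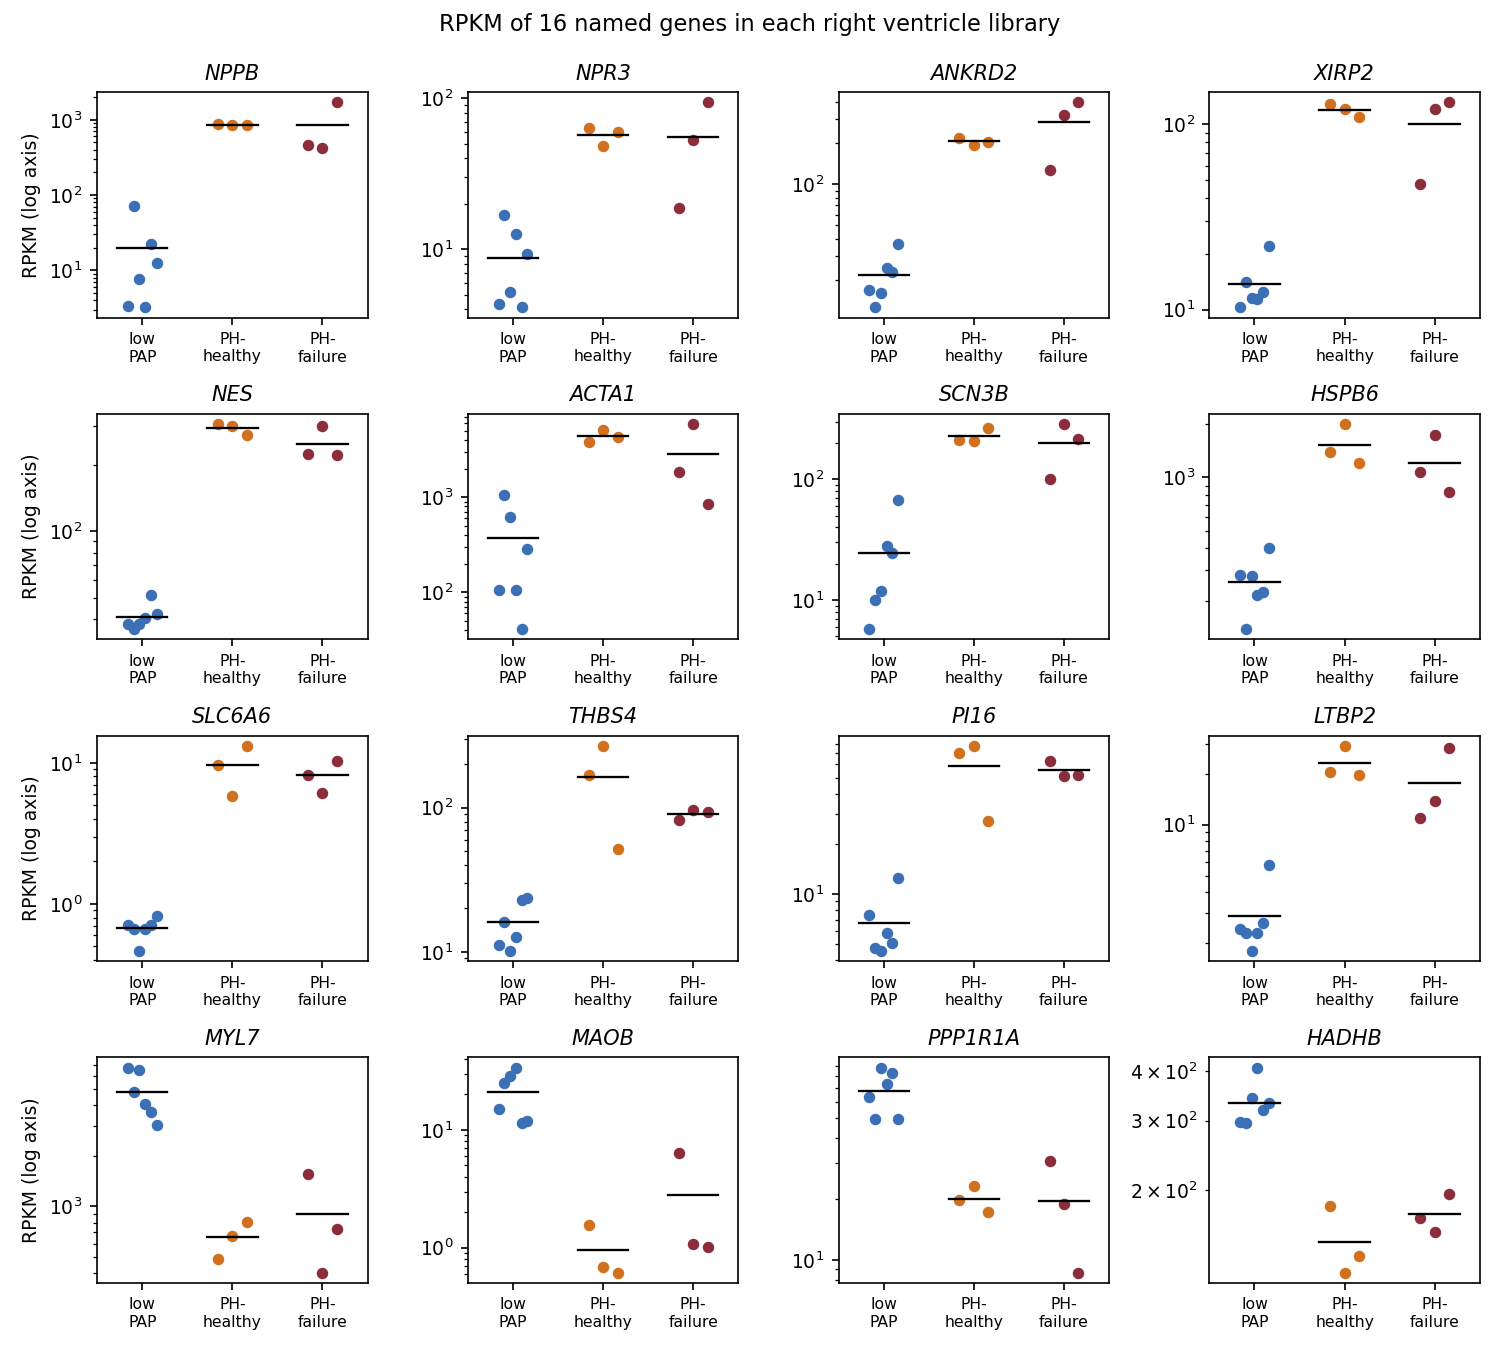
RPKM on a log axis of 16 named genes in each of the 12 libraries (low PAP blue, PH-healthy orange, PH-failure dark red; points are animals and black lines group means). In all 16 genes the 3 PH-healthy points lie on one side of the 6 low-PAP points, above them in 12 and below them in MYL7, MAOB, PPP1R1A and HADHB. The genes were named for lack of overlap or a small p in these same libraries, so the separation is no separate support.

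The contractile filaments themselves were mixed. Of 28 genes of thick and thin filaments, 10 rose and 8 fell (5 and 7 after removal of the length trend), and the sign of their median, 0.19, turned after median-ratio scaling, TMM scaling and removal of the length trend. Among the risers, NEBL (nebulette, an actin-binding protein of the cardiac Z disc) went from 58.1 to 109 RPKM (median 83) to 196, 174 and 222 RPKM (1.25 ± 0.23, adjusted p = 0.00263). MYOM3, a myomesin of the M band, went from 19.7 to 45.8 RPKM (median 30.6) to 88.8, 74.3 and 94.6 RPKM (1.48 ± 0.30, adjusted p = 0.00419). Neither gene overlapped between the groups. MYH7, the slow myosin heavy chain, was at 2041 to 3129 RPKM (median 2680.2) and 3620.5, 3251 and 4088 RPKM (0.50 ± 0.18, adjusted p = 0.046), a call that ended without low-PAP replicate 1 (adjusted p = 0.0849) or low-PAP replicate 2 (adjusted p = 0.058) or low-PAP replicate 3 (adjusted p = 0.086) or low-PAP replicate 4 (adjusted p = 0.0668) or low-PAP replicate 5 (adjusted p = 0.0505) or PH-healthy replicate 1 (adjusted p = 0.118) or PH-healthy replicate 2 (adjusted p = 0.068) or PH-healthy replicate 3 (adjusted p = 0.166). The MYH7 difference was 0.02 after removal of the length trend (adjusted p = 0.929), and 0.27 and 0.28 after median-ratio and TMM scaling (adjusted p = 0.275 and 0.259). TTN (titin), at 1.04 ± 0.22 with adjusted p = 0.00528, turned to the other sign after removal of the length trend. Among the fallers, TPM2 (beta-tropomyosin) went from 1297 to 1849 RPKM (median 1433) to 780.0, 892 and 1038 RPKM (-0.72 ± 0.14, adjusted p = 0.00323), which quantile normalization ended (0.0724).

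The fallers of this list with the widest differences are known from atrial, slow skeletal or fetal muscle. MYL7, the atrial regulatory light chain on chromosome 4, 77860261 to 77862353, ranged from 3065 to 6738 RPKM (median 4454) in low PAP and was at 486, 669.6 and 801 RPKM in PH-healthy (-2.85 ± 0.36, adjusted p = 0.000407). The lowest low-PAP library was well above the highest PH-healthy one. MYBPHL, a myosin-binding protein of atria and conduction tissue, fell from 2.84 to 13.3 RPKM (median 10.5) to 1.58, 2.63 and 1.77 RPKM (-1.59 ± 0.41), and TNNI1, slow skeletal troponin I, from 6.98 to 43.3 RPKM (median 8.4) to 3.74, 2.88 and 2.18 RPKM (-1.74 ± 0.45). Each of these calls depended on 1 library: that of MYBPHL was lost without PH-healthy replicate 1 (adjusted p = 0.0559) and that of TNNI1 without PH-healthy replicate 3 (adjusted p = 0.0546). SBK2, a kinase listed with the atrial markers, fell by 1.08 (adjusted p = 0.00556) to 0.262, 0.0886 and 0.309 RPKM, low levels that lie below the 1 RPKM of the filter. The model with the adipocyte score ended the SBK2 call (0.0628). The atrial markers did not move as a block. Of the 14 tested, 3 rose and 3 fell, their summed level of 1056 to 1346 RPKM in PH-healthy against 3403 to 7061 in low PAP being mostly MYL7, and BMP10, a defining atrial gene, was at 0 in all 12 libraries. Skeletal muscle markers summed to 12370 to 14270 RPKM in PH-healthy and 16140 to 20640 in low PAP, mostly genes that heart muscle shares, with MYOD1, which defines skeletal muscle, at 0 in every library. DKK3, on the atrial list, rose from 56.9 to 89.9 RPKM (median 68) to 232, 249.8 and 209.8 RPKM (1.68 ± 0.25, adjusted p = 0.000963), and PAM, which amidates peptide hormones, rose by 1.31 (adjusted p = 0.00115).

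Z-disc and costamere genes, which tie the sarcomere to the membrane, rose more often than they fell. Of 38 tested, 18 rose and 2 fell (median 0.50; 13 and 4 after removal of the length trend). LAMA2, the laminin chain of the muscle basement membrane, rose from 11.4 to 26.3 RPKM (median 13.8) to 64.1, 75.3 and 53.5 RPKM (2.00 ± 0.24, adjusted p = 0.000265). DES (desmin), the muscle intermediate filament, rose from 1167 to 1536 RPKM (median 1240.1) to 2935, 3061 and 2492 RPKM (1.14 ± 0.17, adjusted p = 0.00112). FLNC (filamin C), an actin crosslinker, and PDLIM1, a Z-disc adaptor, rose by 1.25 ± 0.20 and 0.98 ± 0.16, and CRYAB, the small heat shock protein that protects desmin, went from 2929 to 3933 RPKM (median 3386) to 6370.4, 6675 and 4971 RPKM (0.82 ± 0.15, adjusted p = 0.00245). None of the 5 genes overlapped between groups. TCAP (telethonin), at the other side, fell by 0.48 (adjusted p = 0.0139), a call lost without PH-healthy replicate 2 (adjusted p = 0.0569) or PH-healthy replicate 3 (adjusted p = 0.0564). In the cytoskeleton list (6 of 24 up, 4 down) MAP4, a microtubule-binding protein, rose from 22.4 to 61.5 RPKM (median 30.6) to 105, 99.99 and 111 RPKM (1.59 ± 0.26) and TUBA4A fell from 105 to 156 RPKM (median 129) to 69.9, 37.5 and 94.7 RPKM (adjusted p = 0.00842). TUBA1D, annotated as an alpha-tubulin, was at 1.61 to 8.52 RPKM (median 6.71) in low PAP and at 0.0263, 0.0623 and 0.145 RPKM in PH-healthy, values that rest on few reads. Tubulins resemble one another. With the handling of shared reads not given in the sources used here, single members are uncertain.

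The intercalated disc joins heart muscle cells end to end. Of its 19 tested genes, 10 rose and 0 fell (median 0.52), but only 3 rose, and 1 fell, after removal of the length trend. CTNNA3 (alpha-T-catenin) rose from 5.54 to 9.97 RPKM (median 8.41) to 22.5, 24 and 24.9 RPKM (1.47 ± 0.18, adjusted p = 0.000294), while the more abundant CTNNA1 and CTNNB1 rose by 0.50 ± 0.11 and 0.52 ± 0.11. The libraries did not overlap in any of these 3 catenins. After removal of the length trend CTNNA1 and CTNNB1 lost their calls (adjusted p = 0.119 and 0.0693).

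Among genes of excitation, SCN3B, a beta subunit of the voltage-gated sodium channel on chromosome 15, 34769329 to 34791462, rose most. It ranged from 5.76 to 67.6 RPKM (median 18.2) in low PAP, with replicate 6 the highest, and was at 211, 206 and 268 RPKM in PH-healthy (3.57 ± 0.59, adjusted p = 0.00182). Of the sodium channel and pump list, 6 of 14 rose and 0 fell, which became 1 and 1 after removal of the length trend. Of 16 potassium channel genes, 3 rose and 2 fell. KCNJ8, the pore of an ATP-sensitive potassium channel, fell from 91.3 to 184 RPKM (median 113) to 44.4, 63.6 and 69.2 RPKM (-0.99 ± 0.25, adjusted p = 0.0112), a call lost without PH-healthy replicate 1 (adjusted p = 0.0653).

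Of 30 calcium-handling genes 13 rose and 0 fell; after removal of the length trend 10 rose and 3 fell and the median went from 0.40 to -0.02. JPH2 (junctophilin 2), which holds the transverse tubule to the sarcoplasmic reticulum, rose from 1.21 to 3.88 RPKM (median 2.75) to 6.73, 4.74 and 6.8 RPKM (1.03 ± 0.22, adjusted p = 0.00556). ASPH, whose gene also encodes the reticulum protein junctin, rose from 5.87 to 8.44 RPKM (median 7.07) to 18.7, 18.9 and 14.5 RPKM (1.16 ± 0.19), and ATP2B1, a plasma membrane calcium pump, rose by 0.92 ± 0.17. No library overlapped in these 3 genes. The main calcium pump of the reticulum, ATP2A2, was at 343 to 842 RPKM (median 481) and 394, 310.3 and 508 RPKM, and its inhibitor PLN (phospholamban) at 441 to 885 RPKM (median 689) and 436, 550.5 and 474 RPKM. Both overlapped and neither passed (adjusted p = 0.343 and 0.0813), with 95% intervals of -0.88 to 0.24 and -0.85 to -0.04. Both passed as lower after removal of the length trend (adjusted p = 0.0362 and 0.0224). PLN also passed as lower after median-ratio scaling (0.0264), TMM scaling (0.0261) and scaling without the mitochondrial genome (0.0332), and without low-PAP replicate 1 (0.0211).

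In adrenergic and cAMP signalling, 15 of 35 genes rose and 4 fell (11 and 6 after removal of the length trend). The regulatory subunit PRKAR1A of protein kinase A rose from 58.8 to 82.5 RPKM (median 70.4) to 132, 121 and 117 RPKM (0.81 ± 0.12, adjusted p = 0.000878), AKAP6, which anchors that kinase at the nuclear envelope, rose by 1.41 ± 0.25, and PDE3B, a cAMP phosphodiesterase, by 0.92 ± 0.17. ADRA1A, an alpha-1 adrenergic receptor, rose from 4.7 to 7.57 RPKM (median 5.98) to 11.2, 9.73 and 12.7 RPKM (0.80 ± 0.16, adjusted p = 0.00456). The 4 fallers of the list included MAOB, the mitochondrial enzyme that degrades amines, on chromosome X, 105235855 to 105359152. MAOB was at 11.4 to 33.8 RPKM (median 20.1) in low PAP and at 1.55, 0.685 and 0.616 RPKM in PH-healthy (-3.41 ± 0.43, adjusted p = 0.000384), a 22-fold lower mean. PPP1R1A, an inhibitor of protein phosphatase 1, fell from 49.1 to 88.5 RPKM (median 68.4) to 19.7, 23.1 and 17.3 RPKM (-1.68 ± 0.30, adjusted p = 0.00247), and its relative PPP1R1B fell by 1.42 (adjusted p = 0.00492). In both, every PH-healthy library was below every low-PAP library.

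Among genes of hypertrophic signalling and cardiac transcription factors more rose than fell. Of 29 calcineurin and hypertrophy genes 17 rose and 1 fell (median 0.64; 13 and 3 after removal of the length trend). MEF2C, a muscle transcription factor, rose from 2.37 to 5.92 RPKM (median 3.91) to 9.11, 9.49 and 12.7 RPKM (1.19 ± 0.20, adjusted p = 0.00173), RCAN2, an inhibitor of calcineurin, from 19.5 to 39.7 RPKM (median 28.4) to 57.9, 57.4 and 59.2 RPKM (1.03 ± 0.17), and the kinase GSK3B by 1.22 ± 0.21. The faller was MAP2K6, a kinase upstream of p38, which went from 5.87 to 8.09 RPKM (median 6.51) to 3.06, 2.33 and 2.73 RPKM (-1.06 ± 0.15, adjusted p = 0.000733). Of 23 cardiac transcription factors 9 rose and 0 fell (8 and 1 after removal of the length trend). TBX20 and GATA6, both needed for heart formation, rose from 3.35 to 7.17 RPKM (median 6.32) to 13.2, 18.8 and 18.4 RPKM and from 8.28 to 18.2 RPKM (median 12.9) to 27.3, 27.3 and 26.4 RPKM. TEAD4, a partner of the Hippo pathway's effectors, rose from 0.494 to 1.33 RPKM (median 0.737) to 5.56, 4.05 and 5.38 RPKM (1.70 ± 0.20, adjusted p = 0.000207). In all 6 genes named here with their values by library, MAP2K6 among them, the groups did not overlap. Immediate early genes, which respond within minutes to stress and handling, did not rise: 0 of 21 were higher and 1 lower, with a median of -0.04.

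Many extracellular matrix genes rose. Of the lists, 13 of 24 fibrillar collagen and collagen-processing genes, 13 of 24 other collagens and basement membrane genes, 19 of 33 matricellular and elastic fibre genes, 10 of 17 proteoglycan genes and 13 of 24 proteases and inhibitors were higher, and 0, 0, 0, 2 and 1 lower. After removal of the length trend 7, 5, 14, 9 and 6 were higher and 0, 2, 1, 3 and 1 lower. In the model with the adipocyte score 3, 5, 11, 8 and 5 were higher and 0, 0, 0, 0 and 0 lower. Fibroblasts make much of this matrix, and 8 of 20 fibroblast markers rose and 1 fell (4 and 4 after removal of the length trend), with summed levels of 1102 to 1863 RPKM in PH-healthy and 1141 to 1435 in low PAP. The abundant fibroblast genes DCN and POSTN did not pass, at -0.30 (95% interval -0.65 to 0.04) and -0.56 (-1.16 to 0.04), though both passed as lower after removal of the length trend (adjusted p = 0.0439 and 0.0393). They also passed as lower after median-ratio scaling (0.0412 and 0.0459) and TMM scaling (0.0432 and 0.0459).

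COL1A1, the main chain of fibrillar collagen I, rose from 19.3 to 40.7 RPKM (median 25.9) to 86.8, 153 and 45.4 RPKM (1.62 ± 0.32, adjusted p = 0.00409). LOXL1, which crosslinks elastin and collagen, rose from 2.01 to 3.68 RPKM (median 3.3) to 18.3, 26.3 and 6.22 RPKM (1.95 ± 0.32), and COL5A1, which sets the width of collagen fibrils, and COL8A1, a short-chain collagen of vessels, rose by 1.46 ± 0.24 and 2.15 ± 0.36. The groups did not overlap in any of these 4 genes. THBS4 (thrombospondin 4), a matricellular protein of tendon and loaded heart, rose from 10.2 to 23.4 RPKM (median 14.3) to 168, 268 and 51.6 RPKM (3.04 ± 0.41, adjusted p = 0.000515). Its PH-healthy libraries differed widely among themselves but all lay above low PAP. LTBP2, a microfibril protein, rose from 1.79 to 5.75 RPKM (median 2.35) to 20.5, 29.3 and 19.6 RPKM (2.69 ± 0.29, adjusted p = 0.000176). SPP1 (osteopontin) rose from 0.394 to 2.12 RPKM (median 0.664) to 13.9, 22 and 5.15 RPKM, FBLN7, a fibulin, from 0.149 to 0.394 RPKM (median 0.243) to 10.3, 22 and 2.26 RPKM, and NPNT (nephronectin), an integrin ligand, from 1.54 to 5.71 RPKM (median 1.8) to 20.3, 29.4 and 18.4 RPKM. The 3 genes were low in low PAP and varied severalfold within PH-healthy, without overlap.

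Among proteoglycans, BGN (biglycan) rose from 22.6 to 46.3 RPKM (median 27.9) to 110.5, 191 and 65.9 RPKM (1.86 ± 0.29, adjusted p = 0.00128), PRELP from 5.41 to 12.9 RPKM (median 6.36) to 42.4, 71.1 and 21.4 RPKM (2.34 ± 0.33), and ASPN (asporin) from a low-PAP median of 43.0 RPKM to 148, 157 and 74 RPKM (1.47 ± 0.26). VCAN (versican), a large proteoglycan of provisional matrix, rose from 0.372 to 0.937 RPKM (median 0.503) to 3.94, 2.97 and 2.01 RPKM (1.32 ± 0.19, adjusted p = 0.000773). Both the gelatinase MMP2 and the protease inhibitor TIMP1 rose, MMP2 from 17.1 to 34.6 RPKM (median 20.8) to 77.6, 129 and 39.8 RPKM (1.66 ± 0.31) and TIMP1 from 9.9 to 17.2 RPKM (median 14.7) to 68.4, 95.4 and 36.4 RPKM (2.09 ± 0.27, adjusted p = 0.000469). The serpin SERPINE2 rose by 1.85 ± 0.36. PI16, a fibroblast marker, rose from 4.54 to 12.4 RPKM (median 5.41) to 70.7, 77.8 and 27.5 RPKM (2.91 ± 0.32, adjusted p = 0.000183). No library overlapped between the groups in these 8 genes.

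Secreted regulators of growth also rose. In the TGF-beta and activin list 17 of 34 rose and 2 fell (11 and 3 after removal of the length trend). The ligand TGFB2 rose from 0.693 to 1.64 RPKM (median 0.896) to 5.41, 7.43 and 3.78 RPKM (1.67 ± 0.21, adjusted p = 0.000417). FSTL3, a secreted inhibitor of activin and myostatin, rose from 1.3 to 6.71 RPKM (median 2.33) to 33.1, 28.8 and 33.4 RPKM (3.18 ± 0.35, adjusted p = 0.000176). The ligand BMP7 rose from 18.6 to 30.4 RPKM (median 23.5) to 46, 41.2 and 47.2 RPKM (0.89 ± 0.19), and SMAD9, a transducer of BMP signals, by 1.04 ± 0.20. Of 29 growth factor and receptor genes 11 rose and 0 fell (9 and 2 after removal of the length trend). PDGFD, a ligand of the PDGF beta receptor, rose from 1.08 to 2.68 RPKM (median 1.8) to 6.01, 8.43 and 6.61 RPKM (1.49 ± 0.17, adjusted p = 0.000195), HBEGF, a ligand of the EGF receptor, from 2.03 to 3.23 RPKM (median 2.17) to 10.2, 17.3 and 7.64 RPKM (1.82 ± 0.30), and IGF2R, which clears IGF2, by 1.67 ± 0.28. Wnt-related genes rose in 6 of 16 cases and fell in 1. SFRP4, a secreted Wnt antagonist on that list, rose from 0.295 to 0.978 RPKM (median 0.705) to 3.19, 3.66 and 1.52 RPKM. APCDD1, a membrane inhibitor of Wnt signals that is not on the list, rose from 1.91 to 6.42 RPKM (median 3.25) to 37.7, 36 and 25.8 RPKM (2.94 ± 0.25, adjusted p = 5.09e-05). These regulators did not overlap between the groups.

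Vessel genes rose in part. Of 16 endothelial markers 6 rose and 0 fell (4 and 0 after removal of the length trend), and their sum was 300.5 to 360.9 RPKM in PH-healthy against 173.8 to 318.4 in low PAP. PLVAP, which forms the diaphragms of fenestrated capillaries and veins, rose from 3.66 to 8.06 RPKM (median 3.97) to 19.1, 32.2 and 33.7 RPKM (2.30 ± 0.35, adjusted p = 0.000994), and VWF (von Willebrand factor) from 4.03 to 7.74 RPKM (median 5.16) to 15.7, 20.3 and 23 RPKM (1.68 ± 0.32, adjusted p = 0.00302). PECAM1, a general endothelial marker, was at 22.1 to 46.7 RPKM (median 32.5) and 43.3, 41.8 and 37.1 RPKM and did not pass (0.36, 95% interval -0.11 to 0.83). PROX1, the transcription factor of lymphatic endothelium that heart muscle also expresses, rose by 1.22 ± 0.20. Of 14 smooth muscle and pericyte markers 5 rose and 2 fell (2 and 3 after removal of the length trend), with sums of 2794 to 3391 and 1468 to 1933 RPKM that are mostly desmin. In the list of vascular signals 8 of 28 rose and 3 fell, near the 26.6% and 8.15% of all genes. After removal of the length trend 3 rose and 3 fell, beside 14% and 13.4% of all genes. The endothelin receptor EDNRA fell from 22.2 to 32 RPKM (median 26.5) to 15.4, 14.1 and 15.9 RPKM (-0.77 ± 0.15, adjusted p = 0.00413), and PRKG1, the kinase activated by cGMP, rose from 0.442 to 1.21 RPKM (median 0.705) to 3.56, 2.96 and 2.56 RPKM (1.20 ± 0.21). INOS (inducible nitric oxide synthase) fell by 0.96 (adjusted p = 0.0117) to 0.313, 0.197 and 0.134 RPKM, low levels that lie below the 1 RPKM of the filter. Its call was lost with the replicate block (0.07) and in the model with the adipocyte score (0.0811).

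The groups had lived at the same elevation. Of 26 hypoxia-response genes tested 6 rose and 0 fell, beside 26.6% and 8.15% of all genes. HIF1A was at 6.89 to 16.3 RPKM (median 7.98) and 19.1, 12.4 and 13.5 RPKM (95% interval -0.18 to 1.37), and EPAS1 (HIF-2 alpha) at 34.6 to 52.9 RPKM (median 45) and 44.9, 59.9 and 59.8 RPKM (-0.02 to 0.62). VEGFA, a target of both, was at 11.6 to 21.2 RPKM (median 13.5) and 17, 15.7 and 20.2 RPKM (-0.21 to 0.61). None of the 3 passed and their libraries overlapped. The prolyl hydroxylase EGLN3 rose from 32.9 to 71.4 RPKM (median 49.2) to 91.1, 129.8 and 103 RPKM (1.17 ± 0.31, adjusted p = 0.0135), a call lost without PH-healthy replicate 2 (adjusted p = 0.0596). The collagen prolyl hydroxylase subunit P4HA2, on this list and on that of collagen processing, rose by 0.60 ± 0.13 (adjusted p = 0.00572). In the renin-angiotensin list 3 of 7 rose, among them the glucocorticoid receptor GR-A (NR3C1), from 2.41 to 4.48 RPKM (median 3.88) to 7.2, 9.39 and 11.6 RPKM (1.16 ± 0.18, adjusted p = 0.00126), and LNPEP, an aminopeptidase that binds angiotensin IV, from 2.69 to 8.8 RPKM (median 3.71) to 17.9, 11.9 and 19.1 RPKM (1.66 ± 0.34).

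Genes of oxidative phosphorylation fell with RPKM as deposited, in fewer cases under some other settings and in more under others. Of 38 nuclear genes of complex I, 22 fell and 0 rose (median -0.51), and of 45 of complexes II to V, 25 fell and 0 rose (median -0.52). These families have short exons (median 641.5 and 612 bp). After removal of the length trend 15 and 18 fell, after quantile normalization 10 and 5, with 1 and 2 rising, and in the model with the adipocyte score 0 and 1. More fell after median-ratio scaling (27 and 32), TMM scaling (27 and 32) and scaling without the mitochondrial genome (27 and 30). COX7A1, the muscle form of a cytochrome oxidase subunit, fell from 1697 to 2921 RPKM (median 2446) to 1187, 1330.2 and 1267 RPKM (-0.91 ± 0.19, adjusted p = 0.0054), and COX6C, another subunit, from 1825 to 2727 RPKM (median 2224) to 1346, 1395 and 1119 RPKM (-0.83 ± 0.18). In complex I, NDUFB6 fell from 363 to 562 RPKM (median 472) to 273, 257 and 272 RPKM (-0.78 ± 0.17, adjusted p = 0.00556) and NDUFS4 by 0.67. None of the 4 overlapped, and in the model with the adipocyte score their adjusted p was 0.0521 to 0.0639. The mitochondrial genome itself had 4 of 13 genes lower and 0 higher, led by ND1, from 11868 to 18829 RPKM (median 14268) to 8658, 9711 and 10642 RPKM (-0.57 ± 0.15, adjusted p = 0.0134), a call lost without PH-healthy replicate 1 (adjusted p = 0.0729) and after quantile normalization (0.325). Their median was -0.15, and 0.02 after quantile normalization.

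Fatty acid oxidation, the main fuel path of the adult heart, fell in 14 of 40 genes and rose in 2, and after removal of the length trend in 21 and 1. In the model with the adipocyte score 3 fell and 1 rose. HADHB and HADHA, the subunits of the mitochondrial trifunctional protein, fell from 295 to 409 RPKM (median 326) to 183, 124 and 136 RPKM (-1.18 ± 0.14, adjusted p = 0.000317) and from 178 to 251 RPKM (median 223) to 146, 125 and 146 RPKM (-0.63 ± 0.13, adjusted p = 0.005, and 0.0559 in the model with the adipocyte score). ECHS1, the short-chain enoyl-CoA hydratase, fell from 226 to 337 RPKM (median 274) to 156, 145 and 151 RPKM (-0.90 ± 0.18). All 3 enzymes were without overlap. PPARD, a nuclear receptor that drives such genes, was one of the risers, from 1.75 to 3.58 RPKM (median 2.36) to 5.83, 5.36 and 6.52 RPKM (1.01 ± 0.14, adjusted p = 0.000732). The coactivator PPARGC1A was at 11.9 to 18.2 RPKM (median 14.4) and 13.2, 11.4 and 14.5 RPKM and did not pass (95% interval -0.43 to 0.16), but passed as lower after removal of the length trend (adjusted p = 0.00384). FABP3, the abundant fatty acid carrier, was at 1627 to 2317 RPKM (median 2047) and 1277, 980.2 and 1805 RPKM and did not pass (95% interval -1.28 to 0.09), but passed as lower with only the compared groups fitted (adjusted p = 0.0258) and without PH-failure replicate 3 (adjusted p = 0.0252).

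Glucose metabolism showed no common direction, with 5 of 39 genes higher and 2 lower. HK1 (hexokinase 1) rose from 26.3 to 39.4 RPKM (median 32) to 58, 59.8 and 48 RPKM (0.77 ± 0.17, adjusted p = 0.00637, and 0.0518 after removal of the length trend), and SLC2A3, the glucose transporter GLUT3, from 8 to 17.5 RPKM (median 10.6) to 21, 34.5 and 21.1 RPKM (1.11 ± 0.24). PGAM2, the muscle phosphoglycerate mutase, fell from 270.1 to 451 RPKM (median 369) to 150.1, 154 and 194 RPKM (-1.08 ± 0.20, adjusted p = 0.00257). These 3 genes did not overlap. PDK4, which blocks the entry of pyruvate into mitochondria, was at 73.2 to 336 RPKM (median 102) and 144, 29.7 and 138 RPKM and did not pass (95% interval -2.17 to 0.82). In the list of creatine, NAD and amino acid genes 6 of 27 rose and 1 fell, with transporters of amino acids at its top. SLC6A6, the taurine transporter, rose from 0.465 to 0.818 RPKM (median 0.688) to 9.69, 5.82 and 13.2 RPKM (2.60 ± 0.20, adjusted p = 2.71e-05), and SLC38A1, a glutamine transporter, from 1.28 to 5.14 RPKM (median 2.46) to 19.5, 16.7 and 20.7 RPKM (2.42 ± 0.36, adjusted p = 0.00092). The highest low-PAP library of each was below the lowest PH-healthy one. Of 34 genes of the citric acid cycle, ketone and branched-chain amino acid use 6 fell and 2 rose, and 5 and 5 after quantile normalization.

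Ribosomal protein genes fell in number more than any other list. Of 78 cytosolic ones 61 fell and 0 rose (median -0.59), against 8.15% of all genes falling. In the most abundant of the 10 classes by level, 31.1% of genes fell. Removal of the length trend left 37 lower, quantile normalization 14 and the model with the adipocyte score 1. Median-ratio scaling gave 72 lower, TMM scaling 71 and scaling without the mitochondrial genome 69. None rose under these settings. RPS26 fell from 383 to 662 RPKM (median 440.5) to 211, 229.9 and 230.4 RPKM (-1.08 ± 0.19, adjusted p = 0.00221) and RPS29 from 653 to 1005 RPKM (median 892) to 460.3, 523 and 479 RPKM (-0.79 ± 0.17, adjusted p = 0.00527), neither overlapping. Of 76 genes of the mitochondrial ribosome 37 fell and 0 rose (39 fell after removal of the length trend, 42 after quantile normalization and 9 in the model with the adipocyte score). After median-ratio scaling, and likewise after TMM scaling, 58 of them fell. MRPL21 went from 89.1 to 139 RPKM (median 118) to 61.6, 62.3 and 61.1 RPKM (-0.88 ± 0.15, adjusted p = 0.00214) and MRPS18C from 79.2 to 127 RPKM (median 96.1) to 59, 55 and 53.7 RPKM (-0.80 ± 0.14). Of 45 proteasome genes 10 fell and 0 rose (18 and 0 after removal of the length trend). Ribosomal protein genes have many retrocopies, so that single members are uncertain here as well.

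**Figure D4:**
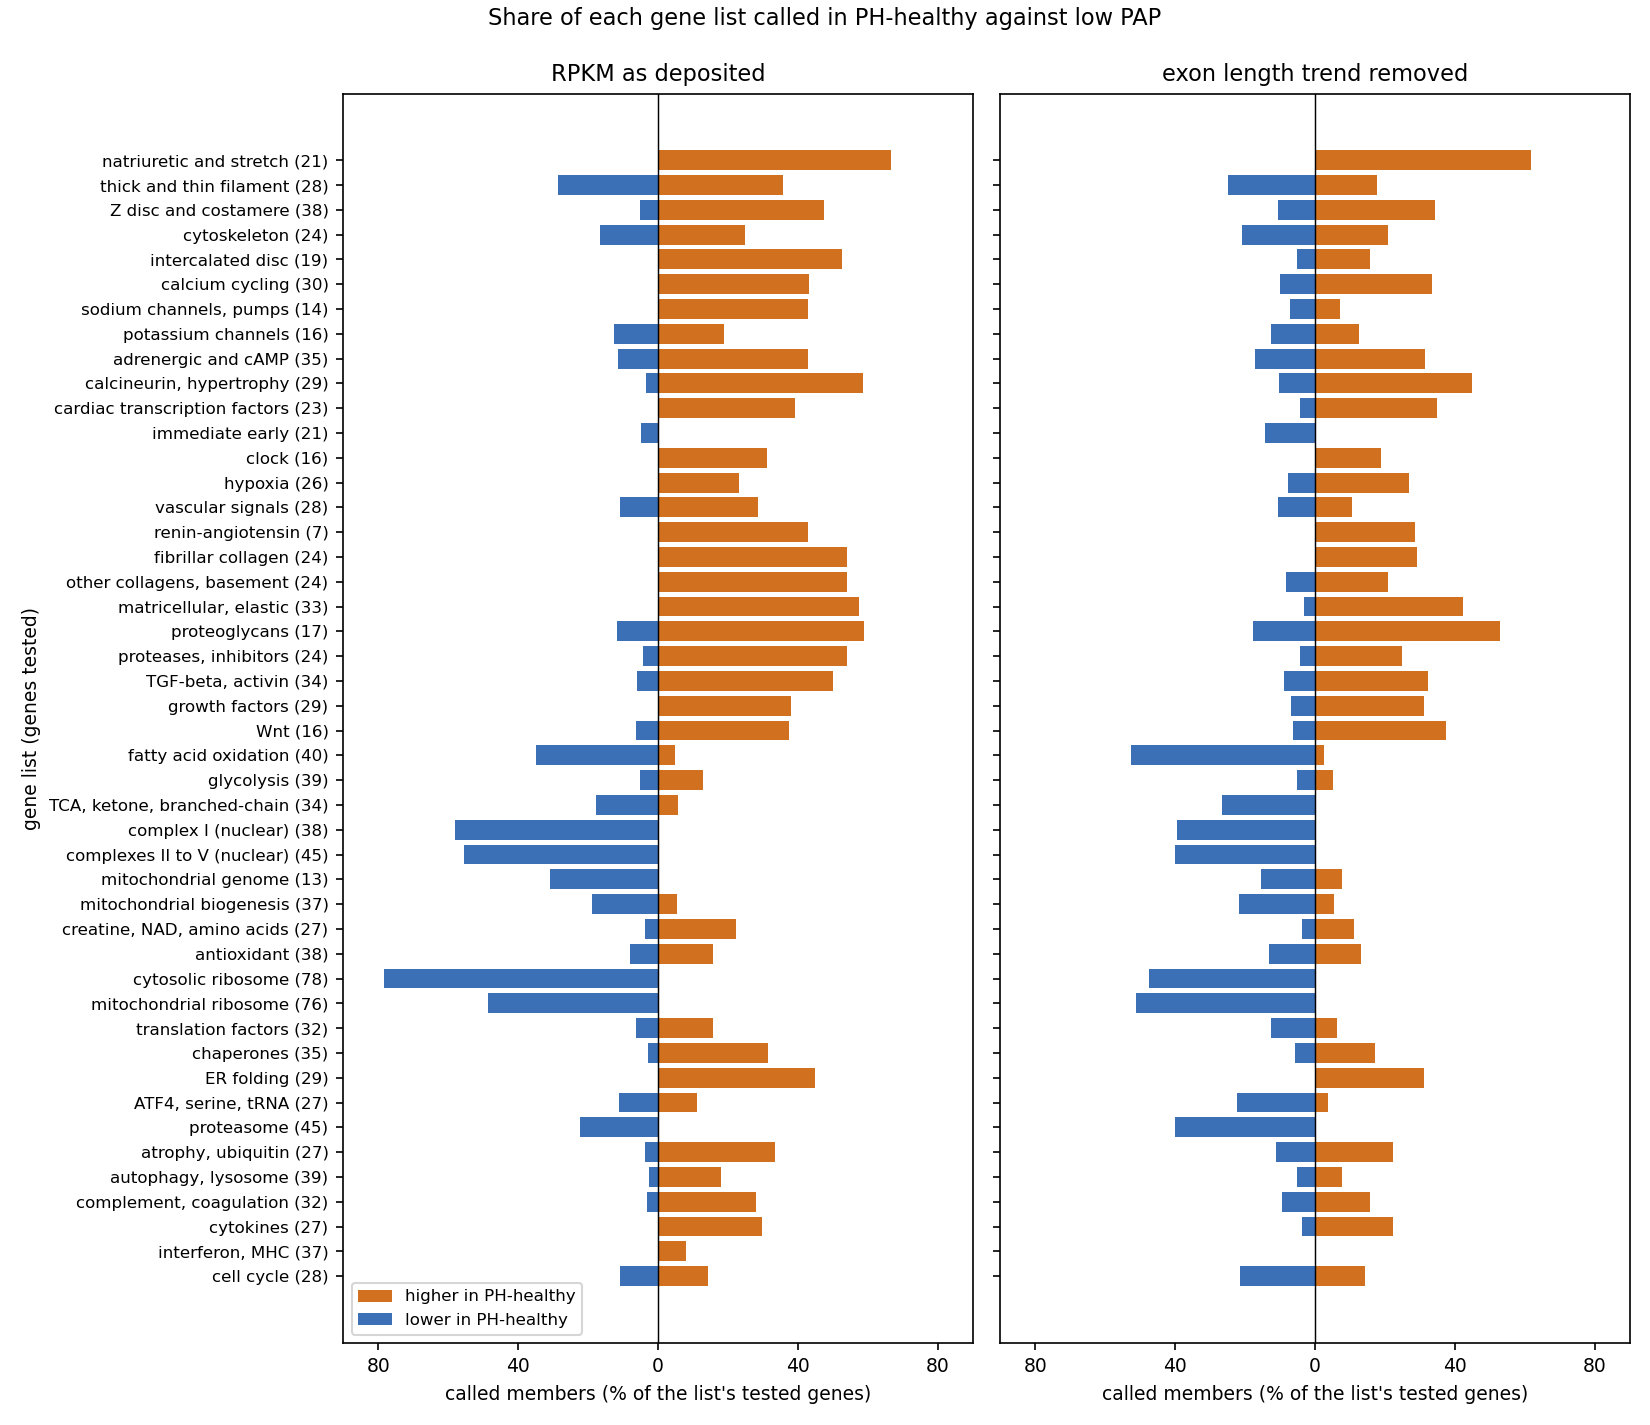
Percentage of each gene list's tested members called higher (orange, right) or lower (blue, left) in PH-healthy against low PAP, with the number tested in parentheses, for RPKM as deposited (left panel) and after removal of the exon length trend in each library (right panel). Cytosolic ribosomal genes go from 61 to 37 of 78 lower and natriuretic and stretch genes from 14 to 13 of 21 higher.

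Chaperones as a list were called near the share of all genes, 26.6% higher, and single members stood out by size. Of 35 chaperones 11 rose and 1 fell (6 and 2 after removal of the length trend). HSPB6, a small heat shock protein of heart and smooth muscle, rose from 139 to 401 RPKM (median 251) to 1396, 2007 and 1203 RPKM (2.62 ± 0.30, adjusted p = 0.000207), and HSPB7, its cardiac relative, from 127 to 231 RPKM (median 185) to 544, 459 and 559.8 RPKM (1.55 ± 0.17, adjusted p = 0.000178). HSPA4, a nucleotide exchange factor for HSP70, rose by 0.91 ± 0.13. In the endoplasmic reticulum list 13 of 29 rose and 0 fell (9 and 0). ATF6, a sensor of misfolded protein in that organelle, rose from 2.76 to 7.2 RPKM (median 4.47) to 16.7, 15.9 and 20.5 RPKM (1.76 ± 0.29, adjusted p = 0.00169), and HYOU1, a chaperone, by 1.09 ± 0.20. In the list of muscle atrophy and ubiquitin genes 9 of 27 rose and 1 fell. FBXO32 (atrogin-1), a muscle ubiquitin ligase, rose from 8.87 to 24.2 RPKM (median 14.4) to 37.2, 39.8 and 42.8 RPKM (1.45 ± 0.27, adjusted p = 0.00285), and KBTBD10 (KLHL41), a sarcomere assembly protein, from 68.2 to 93.1 RPKM (median 84) to 189, 235 and 159.9 RPKM (1.21 ± 0.14). The groups did not overlap in any of the 7 genes named here.

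Immune lists held calls at about or below the share of all genes higher, 26.6%. Of 17 macrophage markers 4 rose and 0 fell (1 rose after removal of the length trend and 0 after quantile normalization), with sums of 252.4 to 426 RPKM in PH-healthy and 197.9 to 342.4 in low PAP. Of 37 interferon and MHC genes 3 rose, and of 27 cytokine genes 8 (0 and 6 after removal of the length trend). Of 32 complement and coagulation genes 9 rose and 1 fell (5 and 3 after removal of the length trend). TNFRSF12A, the receptor of the cytokine TWEAK, rose from 0.496 to 1.67 RPKM (median 1.26) to 10.6, 11.2 and 9.59 RPKM (2.45 ± 0.28, adjusted p = 0.000195), and IL6ST (gp130), the signalling receptor of the interleukin-6 family, from 5.68 to 16.8 RPKM (median 7.72) to 31.5, 27.4 and 34.7 RPKM (1.78 ± 0.29, adjusted p = 0.00169). PROS1 (protein S), an anticoagulant, rose by 1.79 ± 0.25. The B-cell coactivator POU2AF1 rose from 10.5 to 20.4 RPKM (median 11.5) to 40.1, 31.1 and 29.7 RPKM (1.32 ± 0.27, adjusted p = 0.00462), whereas CD79A, CD79B, MS4A1 and PAX5, which define B cells, stayed below 1 RPKM in every library.

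Cell cycle genes split, with 4 of 28 higher and 3 lower (4 and 6 after removal of the length trend). Cyclin D2 (CCND2) rose from 3.91 to 4.59 RPKM (median 4.29) to 12.4, 12 and 12.3 RPKM (1.33 ± 0.14, adjusted p = 0.000135) and the inhibitor CDKN2B from 0.0838 to 0.345 RPKM (median 0.153) to 2.65, 4.63 and 4.33 RPKM (2.01 ± 0.27, adjusted p = 0.000506). PCNA, a clamp of DNA replication, fell from 12.8 to 18.4 RPKM (median 15.2) to 8.61, 10.4 and 9.28 RPKM (-0.64 ± 0.14, adjusted p = 0.00632). All 3 were without overlap between the groups.

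Several of the genes with the widest differences belong to none of the lists. RANBP3L, a relative of a nuclear export cofactor, was at 0.0673 to 0.328 RPKM (median 0.18) in low PAP and at 11.2, 17 and 4.95 RPKM in PH-healthy (3.20 ± 0.37, adjusted p = 0.000213). RAB33A, a small GTPase, rose from 2.7 to 4.01 RPKM (median 3.37) to 22.2, 30.2 and 17.3 RPKM (2.46 ± 0.17, adjusted p = 1.22e-05). In the other direction, CA13, a carbonic anhydrase, fell from 1.87 to 5.1 RPKM (median 3.72) to 0.106, 0.0468 and 0.145 RPKM (-2.08 ± 0.21, adjusted p = 0.000135). C14H8orf22, an uncharacterised gene, fell from 7.63 to 28.9 RPKM (median 19.7) to 0.751, 0.617 and 2 RPKM (-3.04 ± 0.43). BEX2 went from 9.9 to 31.9 RPKM (median 25.3) to 6.92, 6.02 and 4 RPKM (-1.78 ± 0.39) and LRRC3B from 11.4 to 12.4 RPKM (median 11.8) to 2.57, 3.04 and 3.21 RPKM (-1.71 ± 0.16, adjusted p = 9.45e-05). HRASLS, a phospholipid-modifying enzyme, went from 24.1 to 43.7 RPKM (median 33.6) to 10.6, 12.3 and 12.2 RPKM (-1.44 ± 0.20, adjusted p = 0.000735). No low-PAP library of these 7 genes fell within the range of PH-healthy. The 1 faller of the list of creatine, NAD and amino acid genes, ITGB1BP3 (NMRK2), a muscle kinase that makes NAD from nicotinamide riboside, went from 583 to 1395 RPKM (median 1107) to 182, 302 and 314 RPKM (-1.89 ± 0.63, adjusted p = 0.0361), but lost its call when any of 6 single libraries was left out, namely without low-PAP replicate 3 (adjusted p = 0.0693) or low-PAP replicate 4 (adjusted p = 0.0653) or low-PAP replicate 5 (adjusted p = 0.0587) or PH-healthy replicate 1 (adjusted p = 0.133) or PH-healthy replicate 2 (adjusted p = 0.0772) or PH-healthy replicate 3 (adjusted p = 0.0745), and after removal of the length trend (0.0643). The ITGB1BP3 call was also lost with the replicate block (0.180), in the model with the adipocyte score (0.108) and after quantile normalization (0.0729). It was lost as well without the filter on low values (0.0566) and without low-PAP replicates 2 and 6 together (0.0507).

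The direct test of PH-failure against PH-healthy called 1 gene (0.00879% of those tested), lower in PH-failure, and 0 higher (limma, adjusted p under 0.05). At an unadjusted p under 0.05 there were 308 of the 11374 genes. That is a smaller share than the 0.05 that this threshold passes when no gene differs. At the median gene its unadjusted 95% interval reached 0.380 to either side on the log2 scale, with the spread estimated from all 12 libraries. A call after adjustment over all tested genes needs a larger difference of such a gene. With 3 animals against 3, differences above 0.380 could thus also be missed. The called gene, 1 of 2 models named BPHL (BPHL_ENSBTAG00000045888), was at 17.8, 17.7 and 18 RPKM in PH-healthy and at 7.81, 7.62 and 6.33 in PH-failure (-1.19 ± 0.14, adjusted p = 0.0154). BPHL is a mitochondrial hydrolase; reads shared by the 2 models make each uncertain. Its call was lost without any 1 of the PH-healthy libraries (adjusted p = 0.142, 0.0658 and 0.143 for replicates 1, 2 and 3), without PH-failure replicate 1 or 3 (0.0544 and 0.102), and with limma-voom on the recovered reads (0.255). For the leading genes the PH-failure libraries ranged more widely. In PH-failure replicates 1 to 3, NPPB stood at 460.3, 426 and 1710.2 RPKM (PH-failure minus PH-healthy, 95% interval -2.28 to 1.68) and ACTA1 at 1827, 5881 and 850.3 (-3.32 to 1.21). NES was at 222, 299 and 219.9 (-0.58 to 0.08), XIRP2 at 47.6, 121 and 132 (-1.11 to 0.33), MYL7 at 1560.5, 403 and 736 (-0.63 to 1.18) and MAOB at 6.37, 1.08 and 1.01 (-0.36 to 1.79).

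Set beside each other against the same 6 low-PAP libraries, so that these counts are not independent, the PH classes gave 3024 and 3190 genes higher and 927 and 658 lower for PH-healthy and PH-failure (26.6 and 28%, and 8.15 and 5.79%). The natriuretic and stretch list gave 14 and 15 higher, the matricellular and elastic list 19 and 24, and complexes II to V 25 and 28 lower. Complement and coagulation genes gave 9 and 21 higher, macrophage markers 4 and 11, and cytosolic ribosomal proteins 61 and 2 lower. For none of the genes on these 6 lists did the direct test of PH-failure against PH-healthy pass. The adipocyte score was 3.61 to 4.73 in PH-failure and 3.16 to 3.44 in PH-healthy, without overlap, and its part in these side by side counts was not tested.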

How the data were processed

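Right ventricle RNA was extracted with Trizol and made into Illumina libraries, per the labels. The authors gave RPKM, per the file headers, for 24616 genes (19987 with symbols) in 12 libraries. The mean RPKM, fold change and p-value that the authors deposited beside them were not used. For aligner, counting, strand and genome build, not given in the sources used here, no statement is made; positions are those of the table. Since RPKM scales with the mapped reads of a library, a change in the most abundant genes shifts all others. Depth was recovered from the steps of the RPKM values, which gave whole reads for all 11374 tested genes, within 0.05 reads.

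Genes with RPKM of at least 1 in at least 3 libraries were fitted with limma 3.58.1 in R 4.3.3 (statmod 1.5.0) on log2(RPKM + 1), with trend and robust moderation, in 1 model of 3 groups and 12 libraries. Calls have a Benjamini-Hochberg adjusted p under 0.05 over all tested genes, two-sided. The design named a count test for counts; the unit being RPKM, limma was used. On that scale changes of low genes are understated. Tests were checked on simulated data. Tables and plots were made with matplotlib 3.10.9, pandas 2.3.3, numpy 2.4.6 and Python 3.11.15.

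The comparison, its 59 gene lists (13 of other cell types and tissue) and the genes to be named were chosen with earlier results of these data known. Named genes are fixed heart genes, the 15 that rose and the 15 that fell most without overlap of libraries, per list up to 4 called members of smallest p per direction and the 2 most abundant not called, and the 8 of smallest p per direction of PH-failure with PH-healthy; not all are printed. Where the libraries of named genes are said not to overlap, that follows in part from this choice and is no separate support. Low-PAP values are given as lowest to highest with the median, PH-healthy values by library (n = 6 and n = 3), and log2 differences ± SE. The alternatives tried were other pseudocounts, filters, scalings and models, a library series term, the replicate block and leaving out each library. The symbols MYH6 and SLN were not analysed here. Some results are not reported here. Members of gene families that share reads are uncertain.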

Additional observations from a re-analysis of the deposited data

Results flagged for a closer look

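In 3 of the 150 groups of 6 low-PAP libraries checked (145 genes and 5 library measures), 1 library lay far from the other 5, where chance alone flags about 1 in 20 groups. LTBP2, the microfibril protein, was at 5.75 RPKM in low-PAP replicate 6 against 1.79 to 2.63 in the other low-PAP libraries, and SPP1 (osteopontin) at 2.12 RPKM in low-PAP replicate 1 against 0.394 to 0.765 in the others. Both values lie toward the PH-healthy libraries and below all of them. The mitochondrial share of exon reads was 29.9% in low-PAP replicate 1 against 22.5 to 24.6% in the others, on the side away from PH-healthy. PH-failure and PH-healthy differed by test in 1 gene, a model named BPHL (BPHL_ENSBTAG00000045888), by -1.19 on the log2 scale (PH-failure minus PH-healthy).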

How the results depend on the processing

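The count of 3951 genes called for PH-healthy with low PAP (3024 higher, 927 lower) moved as follows. It was 2557 (1734 higher) with a filter of 5 RPKM, which tests fewer genes. Quantile normalization gave 1424 higher and 1622 lower, median-ratio scaling 1824 and 1861, and TMM scaling 1858 and 1822, since each centres the median of all genes near 0. Leaving out 1 library gave 1890 to 4643 calls, 1508 to 3588 higher and 382 to 1092 lower. For PH-failure with PH-healthy it gave 0 to 4 calls, 0 to 3 higher and 0 to 2 lower, against 1. That count was 0, with 0 lower, with limma-voom (258 genes at an unadjusted p under 0.05), with only the 2 groups fitted (230) and with the library series as a term (414). Each unadjusted count in this section is out of 11374 genes. Without PH-failure replicate 2 (3 higher, 1 lower) it was 810, a larger share than the 0.05 that the threshold passes when no gene differs. The other unadjusted counts given in this section are smaller shares than 0.05. Replicate numbers are shared by the groups but name different animals, and same-numbered libraries deviated with correlations of -0.123, -0.257 and -0.17, so the numbers do not pair them; with the replicate block 1834 genes were called (1514 higher, 320 lower), and 0 for PH-failure with PH-healthy, which has 0 lower (250 at an unadjusted p under 0.05).

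Alternatives chosen after the data were seen were the adipocyte score as a term, with 1099 calls (930 higher, 169 lower), and 0 for PH-failure with PH-healthy (152 at an unadjusted p under 0.05), the removal of the exon length trend (1595 higher, 1521 lower), and leaving out low-PAP replicates 2 and 6 together, with 5232 calls, and 2 for PH-failure with PH-healthy, both lower. The causes of these moves were not tested. Of the 145 genes given with values or labelled in the plots, 130 were called, and 118 had an adjusted p under 0.01, all of which were called whichever single library was left out. The 118 were chosen on these same libraries and then held to the looser threshold of 0.05, so that is no separate support. The adipocyte term ended 30 of the 130 calls (adjusted p = 0.0503 to 0.145), the replicate block 12, the length trend 8 (TTN with a reversed sign) and quantile normalization 6. Among those 30 were KCNJ8 (adjusted p = 0.1135), HMOX1 (0.1113), TCAP (0.1083), TNNI1 (0.1011), EGLN3 (0.0865) and MYBPHL (0.0761). TUBA4A (0.0664), BEX2 (0.0663), CYBB (0.0605), SHMT1 (0.0587), RPS29 (0.058), MYOM3 (0.0511), PCNA (0.0511) and EDNRA (0.0503) were among them too. The calls ended by the replicate block included those of TUBA4A (0.0738), SPP1 (0.0683) and CYBB (0.0618). Signs reversed for TTN (-0.25) and EPAS1 (-0.11) after removal of the length trend, for VEGFA after median-ratio (-0.0076) and TMM scaling (-0.0011), and for PDK4 without PH-healthy replicate 2, where leaving out 1 library gave -1.06 to 0.0608. The 2 count-model alternatives were not run, because the values are RPKM. The most that a count of 0 allows, 3 reads, comes to 0.0965 to 0.137 RPKM in these 9 libraries for an exon length of 1 kb, and this covers counting error only.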

Other observations

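Genes of the circadian clock, which sets daily rhythms in the heart, rose in 5 of 16 tested cases, near the 26.6% of all genes, and fell in 0 (3 and 0 after removal of the exon length trend, 2 and 1 after quantile normalization). The hour of slaughter was not given in the sources used here. Antioxidant genes went both ways, with 6 of 38 higher and 3 lower. TXNRD1 (thioredoxin reductase) rose from 17.3 to 24.3 RPKM (median 19.7) to 31.2, 31 and 29.2 RPKM (0.58 ± 0.11, adjusted p = 0.00315, and 0.0555 after removal of the length trend), and CYBB, the oxidase subunit of phagocytes, from 1.41 to 2.28 RPKM (median 1.89) to 3.11, 6.78 and 3.3 RPKM (0.84 ± 0.19, adjusted p = 0.00683), neither overlapping. HMOX1 (heme oxygenase 1) fell from 8.26 to 32.5 RPKM (median 24.6) to 7.64, 5.61 and 5.43 RPKM (-1.54 ± 0.44, adjusted p = 0.0195), a call lost without PH-healthy replicate 2 (adjusted p = 0.0635) or PH-healthy replicate 3 (adjusted p = 0.0672).

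Of 39 autophagy and lysosome genes 7 rose and 1 fell (3 and 2 after removal of the length trend). Among the risers, LIPA, the lysosomal acid lipase, went from 5.51 to 9.69 RPKM (median 6.81) to 10.1, 14.2 and 9.82 RPKM (0.61 ± 0.16, adjusted p = 0.0123). Its call was lost without PH-healthy replicate 2 (adjusted p = 0.0689), with the replicate block (0.0919) and in the model with the adipocyte score (0.0844). Quantile normalization (0.113), median-ratio (0.0733) and TMM scaling (0.0721) and removal of the length trend (0.116) also ended it. Of 37 genes of mitochondrial biogenesis 7 fell and 2 rose. Translation factors, unlike the ribosomal proteins, rose in 5 of 32 cases and fell in 2, but after median-ratio scaling 2 rose and 7 fell; the difference between the lists was not tested. Of 27 genes of amino acid stress 3 rose and 3 fell. The faller SHMT1, a serine hydroxymethyltransferase, went from 3.13 to 6.14 RPKM (median 5.1) to 1.64, 1.28 and 2.64 RPKM (-1.05 ± 0.23, adjusted p = 0.00678).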
